A study of Mus musculus with 60 samples.

Results

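Irradiation alone was examined here as a comparison of whole blood between 6 male CD2F1 mice bled 24 h after 9.2 Gy of total-body irradiation (TBI) and 6 unirradiated mice bled on the same study day. These 12 of the 60 mice of the study were chosen by their labels, not by a measured value. All 12 had received vehicle (water with methylcellulose and polyvinylpyrrolidone, without drug) by oral gavage for 6 days and were bled 48 h after the last dose. The irradiated mice (numbers 49 to 54) were exposed to 60Co gamma rays on Day 0, a day after dosing ended, whereas the unirradiated mice (numbers 25 to 30) were not. CD2F1 is a hybrid of the BALB/c and DBA/2 strains, the mice were 5–6 weeks old when purchased and housed 3 to a cage, and each was bled once from the vena cava under isoflurane. The question was which blood cell classes and which gene programmes differed 1 day after an exposure that damages the bone marrow.

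The libraries held between 21760205 and 28091646 counts in irradiated mice and between 22605827 and 32949547 in unirradiated mice, without a difference beyond the spread between mice (2-sided exact permutation test, p = 0.734). Genes with at least 10 counts numbered 12924 to 17789 with TBI and 16324 to 17086 without (2-sided exact permutation test, p = 0.136). They numbered 12924, 15124 and 15376 in irradiated mice 50, 52 and 54, and 16324 to 16813 in the unirradiated even-numbered mice. Globin transcripts summed to at least 13700 CPM in every library. Some libraries also held liver transcripts. All 20 genes of a hepatocyte list were above 10 CPM in irradiated mice 49 and 51 and in unirradiated mouse 29, whose summed hepatocyte levels were 14700, 49600 and 3470 CPM. Unirradiated mouse 27 had 2 such genes and a sum of 70.7 CPM, and the other 8 mice had 0. In the even-numbered mice the sum lay between 0.608 and 1.12 CPM without TBI and between 3.68 and 6.94 CPM with TBI. Of the 20 genes, 4 (Ambp, Apoa2, Apoh and Cyp2e1) passed the low-count filter in even-numbered mice, and these 4 were called higher. At such levels a gene could pass the filter mainly through the irradiated mice, so their direction is not separate support. By the sums alone, liver RNA was low in the even-numbered mice but not equal between their groups. The main results below are therefore given for all 12 mice and for the 6 even-numbered mice, and a gene described as rising or falling was called in both unless stated. Why they held liver RNA was not tested.

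Blood RNA after irradiation can reflect a shift in cell makeup as well as regulation inside cells. Lymphocytes, B cells above all, are among the most radiosensitive cells of the body and die by apoptosis within hours, whereas neutrophils, platelets and red cells are mature cells that no longer divide. DNA damage stabilises the transcription factor p53, which induces genes for cell cycle arrest (Cdkn1a), apoptosis (Bax, Bbc3) and its own inhibition (Mdm2). Interferon-stimulated genes respond to type I interferon, which can follow the sensing of nucleic acid from damaged cells. In whole blood, fewer cells of a type and less RNA per cell cannot be told apart, and a class that keeps its cell number takes a larger share of the RNA when another is lost.

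Among 25146 genes tested with edgeR, a differentially expressed gene (DEG) was one that differed by more than 1 on the log2 scale, in either direction, with an adjusted p below 0.05. By this rule 36% of the genes tested were DEGs, 19.6% were higher and 16.4% lower in irradiated mice, with a median log2 fold change of 0.09 over all genes. The values of the 6 irradiated and 6 unirradiated mice did not overlap for 10.1% of genes in the direction of an increase and for 14.9% in the direction of a decrease. These shares are the background for every list below. The TMM factors, which scale each library, were between 0.562 and 1.19 in irradiated and between 0.952 and 1.32 in unirradiated mice (2-sided exact permutation test, p = 0.0216). When libraries were scaled by total counts in place of TMM, the median log2 fold change moved by -0.36. The split of DEGs changed from 4920 higher and 4122 lower to 3115 higher (12.4%) and 5666 lower (22.5%). A small increase can therefore turn into a decrease with the scaling. Single genes can move further than the median, as did Ralgps2, from 0.33 to -0.20. DESeq2 called 35.8% of genes, edgeR with RLE size factors 36.4% (14.6% lower), edgeR with a term for odd or even number 35.4% and edgeR with its stricter low-count filter 39.9% of the fewer genes it tested.

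The even-numbered mice alone, 3 against 3, gave 9338 DEGs among 21745 genes (42.9%), 4472 higher (20.6%) and 4866 lower (22.4%). Counts in even-numbered mice are to be read against these shares. The TMM factors of irradiated mice 50, 52 and 54 were 0.562, 0.843 and 0.7975, against 0.952 to 1.32 in the unirradiated even-numbered mice. Fewer genes were also detected in these 3 irradiated mice, and the part of both in the even-numbered comparison was not tested. The odd-numbered mice, which include the 3 libraries rich in liver RNA, gave 2613 among 23523 genes (11.1%, with 5.22% higher and 5.89% lower). These subsets have no mouse in common. Of the 2613 DEGs of the odd-numbered mice, 2325 were also DEGs in the same direction in the even-numbered mice, which is 89% of the first list and 24.9% of the second, and 0 had the opposite direction. A test of the difference between these subsets, in a fit of 4 groups with edgeR, called 0 of 25146 genes. Its smallest adjusted p was 0.397, and 3116 genes had an unadjusted p under 0.05. Without the 3 libraries rich in liver RNA, 10289 of 23274 genes (44.2%) were DEGs.

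A second comparison used other mice. Irradiated mice given BIO 300, a genistein preparation, at 200 mg/kg (numbers 55 to 60) were set against vehicle-treated mice bled on Day 0 (numbers 13 to 18). These groups share no mouse with the 12 above, but they differ from each other in drug and day as well as irradiation. In 1 library of each group, mice 57 and 17, all 20 hepatocyte genes were above 10 CPM, and mouse 59 had 4. This comparison called 7117 of 24992 genes (28.5%). Of these, 5656 were also DEGs in the same direction in the main comparison, 79.5% of the second list and 62.6% of the first, and 0 went the opposite way. Its values are given below as those of the BIO 300-treated mice. Counts in them are to be read against the 16.5% higher and 12% lower among all genes of this comparison.

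The main cell classes moved in the same direction in odd-numbered mice alone. In these mice 21 of 24 B cell genes fell (median -3.05), 14 of 20 T cell genes (-2.35) and 12 of 16 MHC class II genes (-3.33). In the same mice 15 of 25 mature neutrophil genes rose (median 2.87), 9 of 24 platelet genes (1.98), 19 of 41 p53 targets (1.60) and 24 of 44 interferon-stimulated genes (1.53). These counts are to be read against the 5.22% higher and 5.89% lower among all genes in odd-numbered mice.

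**Figure D1:**
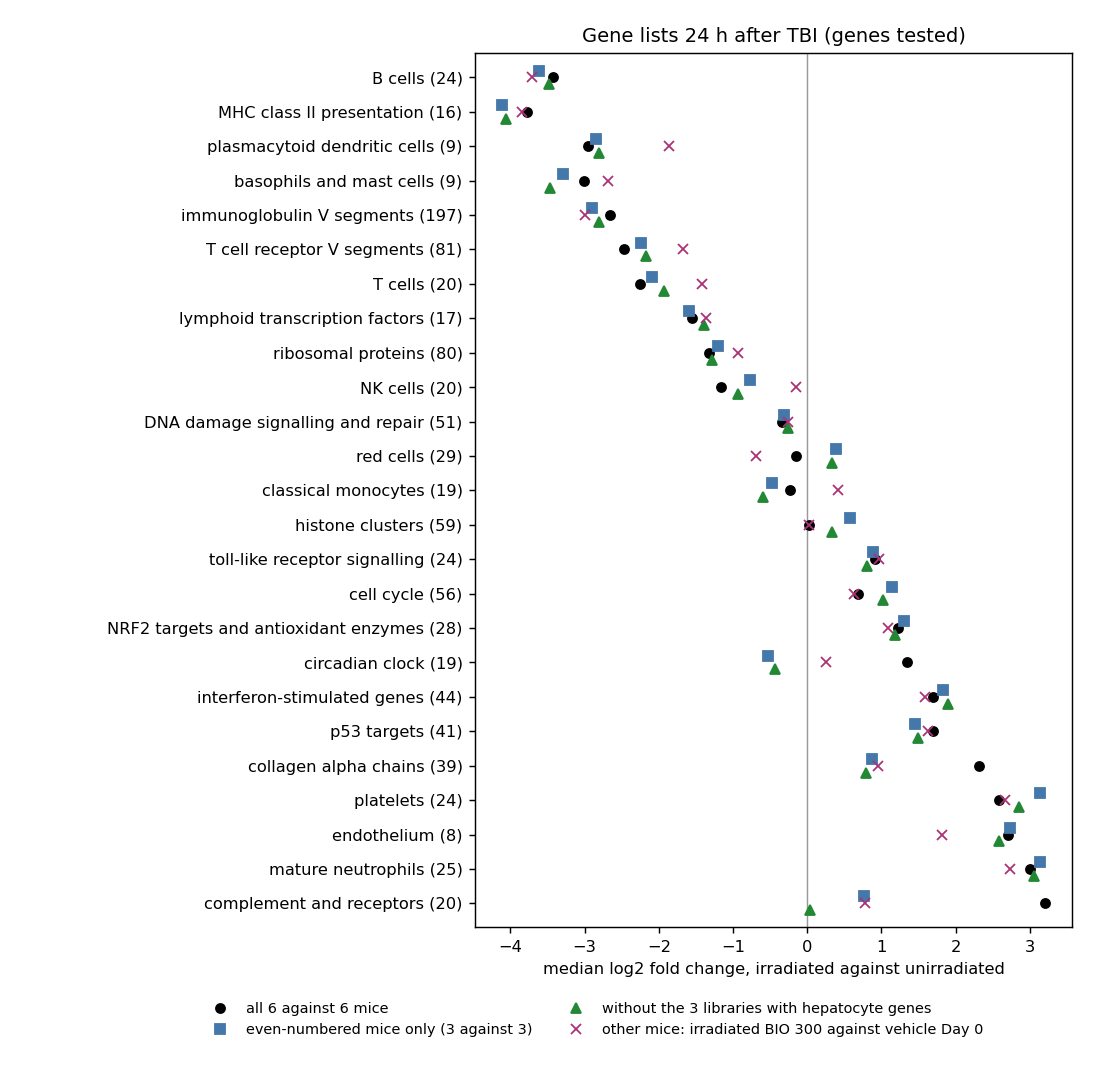
Median log2 fold change of 25 gene lists (x axis, irradiated against unirradiated; number of genes tested in brackets) with all 12 mice, with even-numbered mice, without the 3 libraries rich in liver RNA, and in the BIO 300-treated mice. Lymphocyte lists lie left of 0 and neutrophil, platelet, p53 and interferon lists right of 0 in all 4 settings, whereas circadian clock genes change sign (1.35 with all mice, -0.53 with even-numbered mice) and complement genes move from 3.20 to 0.04 without the 3 libraries.

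B cell genes fell together. Of 24 B cell genes, all were tested, 22 fell and 0 rose, with a median log2 fold change of -3.42. The same counts were found in even-numbered mice (22 of 24, median -3.61), without the libraries rich in liver RNA (median -3.48) and in the BIO 300-treated mice (22 of 24, median -3.71). Summed over the list, the irradiated mice lay between 531 and 749 CPM (median 589) and the unirradiated mice between 2909 and 4593 CPM (median 3435), so that the groups did not overlap.

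Cd79a encodes a signalling chain of the B cell receptor (chromosome 7, 24897381 to 24902197, forward strand of GRCm38). Its level was between 8.12 and 20.7 CPM (median 14.5) in irradiated mice and between 182 and 285 CPM (median 196) in unirradiated mice. The log2 fold change was -3.88 ± 0.26 (SE; adjusted p = 1.6e-06) with all mice and -4.07 with even-numbered mice. The groups were far apart, and mouse 51, with the most liver RNA, had the highest irradiated value. Ms4a1, which encodes CD20, was between 12.0 and 45.4 CPM (median 26.8) after TBI and between 199 and 338 CPM (median 223) without it, a log2 fold change of -3.13. The transcription factors that fix B cell identity fell as well, with log2 fold changes of -3.59 for Pax5 and -3.75 for Ebf1. The largest decreases in the list, other than Ighd, were those of Vpreb3 (-5.43), a gene of the VpreB family, and Fcer2a (-5.12), the low-affinity IgE receptor of follicular B cells. Ighm, the constant region of IgM, fell by 2.65. The 2 members that did not pass were Cd37 (-0.50), a tetraspanin also found on other leukocytes, and Ralgps2 (0.33), which turned to -0.20 with total counts.

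Antigen presentation through MHC class II fell with the B cell genes. Of 16 genes of this list, 13 fell and 0 rose, and in even-numbered mice 14 fell. The transactivator Ciita, which switches on the class II genes, was between 1.26 and 7.14 CPM (median 3.81) in irradiated and between 88.5 and 151 CPM (median 118) in unirradiated mice. Its log2 fold change was -4.90 ± 0.35 (SE; adjusted p = 2.1e-06). No irradiated mouse came near the unirradiated range. H2-Aa, the class II alpha chain, fell by 4.00, and Cd74, the invariant chain, fell by 3.75. Of 197 immunoglobulin variable segments tested, of 218 in the list, 169 fell and 1 rose (Ighv12-3, below 0.6 CPM in every mouse), with a median of -2.66, and in even-numbered mice 154 of 188 fell and 0 rose. Of the 197 segments, 114 averaged 1 CPM or more in either group. The rest could pass the low-count filter through the unirradiated mice and could then hardly rise. The whole list summed to between 22.2 and 100 CPM with TBI and between 379 and 609 CPM without. Variable segments and class II genes differ between mouse strains, and CD2F1 reads were aligned to the reference genome, so that reads of single segments are uncertain.

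T cell genes fell with a smaller median than B cell genes, a difference that was not tested. Of 20 T cell genes, 19 fell and 0 rose, with a median of -2.25, and 18 fell in even-numbered mice (median -2.09). In the BIO 300-treated mice 16 of 20 fell (median -1.42). Cd3e, a chain of the T cell receptor complex, was between 9.63 and 41.2 CPM (median 30.9) with TBI and between 114 and 136 CPM (median 124) without. Its log2 fold change was -2.18 ± 0.33 (SE; adjusted p = 0.00019). Mouse 51 held the lowest value of Cd3e, and its summed T cell level of 93.4 CPM was the lowest of the group (217 to 404 CPM in the other 5 irradiated mice). Lat, an adaptor of the T cell receptor that platelets and mast cells also carry, was not called (0.03). It was the only member of the T cell list that did not pass, and its sign changed with the scaling.

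The CD8 chains and the genes of naive T cells fell as well. Cd8a was between 0.292 and 1.16 CPM (median 0.503) in irradiated and between 20.9 and 31.7 CPM (median 27.7) in unirradiated mice, a log2 fold change of -5.48 ± 0.36 (SE; adjusted p = 1.6e-06), and -5.15 in even-numbered mice. Cd4 fell by 2.27 ± 0.35 (SE). The difference between the decreases of Cd8a and Cd4 was not tested. Of 12 genes of naive T cells, 8 fell, among them Ccr7 (-3.09), the receptor that leads T cells to lymph nodes, and Il7r (-2.27), the receptor of the survival cytokine interleukin 7. Actn1, an actin cross-linker, was the member that rose (1.40, and 0.91 and not called with total counts). Of 12 memory and effector genes, 3 rose and 4 fell, and those that rose, Cd44 (2.23), Itgb1 (2.05) and Il18rap (1.41), are not confined to T cells, Cd44 and Itgb1 being adhesion molecules of most leukocytes and platelets. The effector genes Gzmk (-2.75) and Eomes (-2.01) fell without overlap between the groups. Of 81 alpha and beta variable segments tested, of 130, 69 fell and 0 rose (50 of 76 in even-numbered mice). Only 14 of them averaged 1 CPM or more in either group. The rest could pass the low-count filter through the unirradiated mice and could then hardly rise, so these counts are not separate support. The whole list summed to between 5.87 and 25.1 CPM with TBI and between 56.5 and 78.2 CPM without.

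Natural killer cell genes fell in part, and their calls depended on the mice. Of 20 genes, 11 fell with all mice, 7 of 19 fell in even-numbered mice, and 0 fell and 1 rose in the BIO 300-treated mice, where the median was -0.15 against -1.16 in the main comparison. Klrk1, the activating receptor NKG2D, was between 4.31 and 14.7 CPM (median 7.20) after TBI and between 18.8 and 39.2 CPM (median 22.0) without, a log2 fold change of -1.64, and -1.59 in even-numbered mice. The groups did not overlap. Ncr1, the receptor NKp46, had a log2 fold change of -1.17 that was not called in even-numbered mice (-0.74), and Gzmb, the gene of granzyme B, was not called (-0.21).

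Plasmacytoid dendritic cells, the main interferon-producing cells, are marked by 9 genes here, of which 7 fell and 0 rose, with the same counts in even-numbered mice. Siglech was at most 0.358 CPM in irradiated mice (median 0.181, lowest 0) and between 5.73 and 19.4 CPM (median 8.63) in unirradiated mice, a log2 fold change of -5.59 ± 0.56 (SE). Irf8, the transcription factor of dendritic cells and monocytes, was between 7.41 and 15.8 CPM (median 12.0) and between 91.7 and 127 CPM (median 107), a log2 fold change of -3.19 ± 0.18 (SE; adjusted p = 7.6e-07). Both genes separated the groups fully. Flt3, a receptor of dendritic cells and early progenitors, fell by 3.67. By contrast Xcr1 (2.05) and Clec9a (1.84), markers of cross-presenting dendritic cells, were called higher, with 5 irradiated mice above every unirradiated mouse and mouse 51 inside the unirradiated range. Of 9 basophil and mast cell genes, 6 fell, among them Mcpt8 (-5.17), a basophil protease, and Ms4a2 (-4.64), the beta chain of the IgE receptor. The list member that rose was Gata2 (2.30), which progenitors and megakaryocytes also express.

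**Figure D2:**
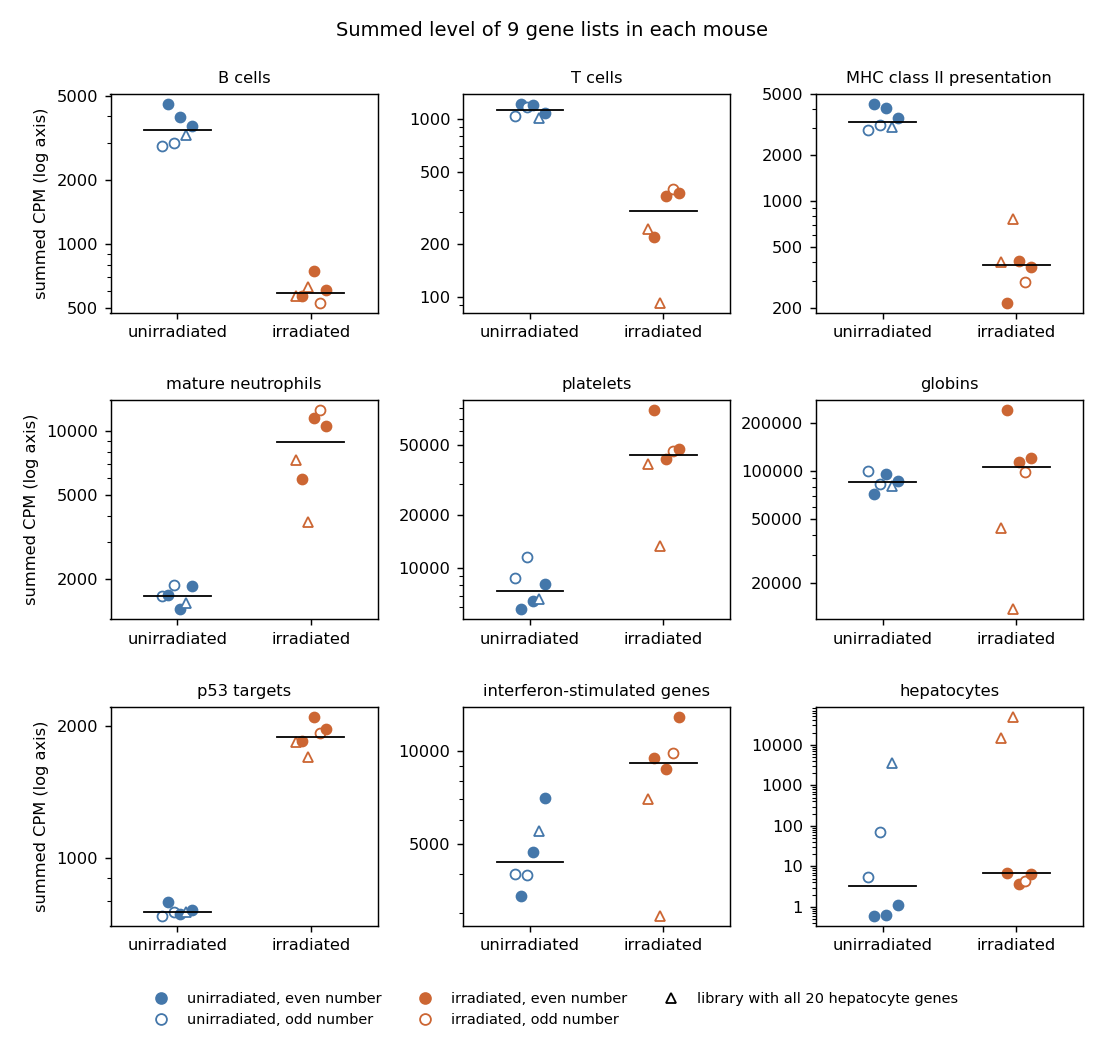
Summed CPM (log y axis) of 9 gene lists in each of the 6 unirradiated and 6 irradiated mice; filled symbols are even-numbered mice, open symbols odd-numbered mice, triangles the 3 libraries rich in liver RNA, and bars the medians. B cell, T cell, neutrophil, platelet and p53 levels separate the groups in every mouse, whereas globin, interferon and hepatocyte levels overlap, and mouse 51 has the lowest T cell, neutrophil, platelet, globin and interferon level of the irradiated mice.

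Mature neutrophil genes rose together. Of 25 genes, 24 rose with all mice and with even-numbered mice, with medians of 3.00 and 3.13, and 23 rose in the BIO 300-treated mice. The summed level was between 3719 and 12620 CPM (median 8956) in irradiated and between 1442 and 1866 CPM (median 1667) in unirradiated mice. The lowest irradiated value belonged to mouse 51, and it was still above every unirradiated one. Csf3r, the receptor of granulocyte colony-stimulating factor (chromosome 4, 126024550 to 126044440, forward strand), was between 672 and 4040 CPM (median 2684) with TBI and between 181 and 361 CPM (median 252) without. Its log2 fold change was 3.19 ± 0.40 (SE; adjusted p = 5.3e-05). Cxcr2, the chemokine receptor that draws neutrophils to tissue, rose by 3.13, and Il1r2, a decoy receptor for interleukin 1, by 3.65.

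Among the 10 largest increases with separate groups, 10 CPM or more on average in 1 group and a call in even-numbered mice as well were Steap4 (4.48), a metalloreductase, Lrg1 (4.82), an inducible glycoprotein of neutrophils and liver, and Slfn4 (5.56), a schlafen gene of myeloid cells that responds to interferon. Slfn4 was between 1049 and 5910 CPM (median 3271) in irradiated and between 35.0 and 94.6 CPM (median 74.3) in unirradiated mice. The others in this group were Ifit3, Ifit3b, Ifit1bl2, Oasl2 and Ifitm1, all of them interferon-responsive, together with Gas6 and Entpd3. The neutrophil genes did not all move alike. Retnlg, abundant in resting mature neutrophils, rose by 1.10 with overlapping groups, a call that was lost with total counts (0.64) and without any 1 of 8 single mice.

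More granule genes rose than fell. Of 12 secondary granule genes, 6 rose (50%) and 2 fell (16.7%), against 19.6% and 16.4% of all genes. The share that fell was thus near the background. Lcn2, the siderophore-binding lipocalin that is also an acute phase gene, was between 56.4 and 210 CPM (median 107) after TBI and between 4.20 and 10.6 CPM (median 6.47) without, a log2 fold change of 3.98. Chil3, a chitinase-like gene of late neutrophil precursors and monocytes, went the other way, from between 17.9 and 30.7 CPM (median 20.1) to between 0.817 and 4.18 CPM (median 1.37), a log2 fold change of -3.53. Neither gene had overlapping groups. Camp, the cathelicidin gene, was at most 1.21 CPM in any mouse and was called with all mice (-1.96) but not with even-numbered mice (-0.93).

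Of 19 genes of classical monocytes, 5 rose and 3 fell, shares near the 19.6% higher and 16.4% lower among all genes, and in even-numbered mice 5 rose and 6 fell. Ccr2, the receptor by which monocytes leave the marrow, was between 22.2 and 51.4 CPM (median 36.6) in irradiated and between 160 and 303 CPM (median 183) in unirradiated mice, a log2 fold change of -2.53 ± 0.23 (SE). Ms4a4c fell by 3.37. Cd14, the lipopolysaccharide co-receptor that neutrophils also carry, rose by 2.99, and Csf1r, the receptor of macrophage colony-stimulating factor, by 1.18 (0.87 and not called with total counts). All 4 genes separated the groups. The summed level of this list in mouse 51 was 6670 CPM against 1550 to 2420 CPM in the other 5 irradiated mice, and several of its genes are also expressed by liver cells.

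More genes of innate sensing rose than fell. Of 24 genes of toll-like receptor signalling, 10 rose (41.7%) and 3 fell (12.5%) with all mice, against 19.6% and 16.4% of all genes. With even-numbered mice 12 rose and 4 fell, against 20.6% and 22.4%. Tlr4, the lipopolysaccharide receptor, was between 41.0 and 92.6 CPM (median 69.9) with TBI and between 14.0 and 18.8 CPM (median 17.0) without, a log2 fold change of 2.04 ± 0.21 (SE; adjusted p = 1.6e-05). Tlr5 (2.48) and Tlr2 (1.56) rose as well. Tlr9, the DNA sensor of B cells and plasmacytoid dendritic cells, fell by 2.87, and Tlr11 (-3.27) and Tlr1 (-1.20) fell too. Of 21 genes of interleukin 1 and the inflammasome, 12 rose (57.1%) and 3 fell (14.3%). Il1b was between 118 and 707 CPM (median 513) in irradiated and between 40.5 and 89.8 CPM (median 55.1) in unirradiated mice (log2 fold change 2.90), its antagonist Il1rn rose by 2.81 and the sensor Nlrp3 by 2.77. The 3 members that fell were Aim2 (-1.18), Il18r1 (-1.12) and Nlrc4 (-1.68), of which the first 2 were not called in even-numbered mice. Among myeloid transcription factors, Spi1, which encodes PU.1, rose by 1.47 and Cebpd by 2.71.

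Platelet and megakaryocyte genes rose in full. All 24 genes of the list rose, with medians of 2.59 with all mice, 3.14 with even-numbered mice and 2.67 in the BIO 300-treated mice, and 24 rose with total counts as well. The summed level was between 13300 and 78340 CPM (median 43800) in irradiated mice and between 5872 and 11580 CPM (median 7450) in unirradiated mice. Mouse 51 was lowest and mouse 50 highest. Itga2b, the platelet integrin alpha IIb (chromosome 11, 102453297 to 102470122, reverse strand), was between 772 and 5055 CPM (median 2222) with TBI and between 232 and 561 CPM (median 332) without, a log2 fold change of 2.78 ± 0.40 (SE; adjusted p = 0.00015). Pf4, the chemokine of platelet alpha granules, rose by 2.48, and Thbs1, the thrombospondin of the same granules, by 3.25. The 8 endothelial genes rose too (median 2.71), and 5 of 7 tested rose in even-numbered mice. Fewer were called elsewhere, 3 of 8 in the BIO 300-treated mice (median 1.82) and 3 of 8 with Day 0 controls (median 1.50). With Day 0 controls 15.1% of all genes were called higher and 11.8% lower. Kdr, the receptor VEGFR2, was between 12.4 and 33.3 CPM (median 19.5) after TBI and between 1.06 and 3.31 CPM (median 2.18) without. The part that platelet RNA has in the endothelial list was not tested, but Esam (2.78), an adhesion molecule of its list, is also a platelet gene.

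Red cell genes gave no common direction. The 4 globin genes summed to between 13700 and 241100 CPM in irradiated mice and between 72100 and 100500 CPM in unirradiated mice, the former enclosing the latter, and 0 were called. Mice 49 and 51 had the lowest globin levels and mouse 50 the highest. The study's methods name a kit that removes globin transcripts, and its part in these levels was not tested. Of 29 other red cell genes, 2 rose with all mice and 6 with even-numbered mice, 0 fell in either, and the median was -0.15 with all mice and 0.39 with even-numbered mice. With total counts 1 rose and 11 fell (median -0.72), against 12.4% and 22.5% of all genes. In the BIO 300-treated mice 2 rose and 8 fell, against 16.5% and 12% of all genes. Of 18 genes of early reticulocytes tested, of 19, 10 rose and 0 fell. Rhag, the Rh-associated glycoprotein of red cell precursors, was between 23.0 and 206 CPM (median 118) with TBI and between 26.6 and 45.6 CPM (median 41.4) without, and Tfrc, the transferrin receptor of iron-loading precursors, was between 175 and 1372 CPM (median 790) and between 203 and 332 CPM (median 266). Both were called higher, at 1.58 and 1.60. For both, 5 irradiated mice lay above every unirradiated mouse, and mouse 51 was the lowest of all 12 mice.

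Most p53 target genes rose. Of 41 genes, all tested, 29 rose and 2 fell, against 19.6% and 16.4% of all genes, and the groups were separate for 23 of the increases. In even-numbered mice 30 rose and 4 fell, and in the BIO 300-treated mice 25 rose and 1 fell. The medians were 1.70, 1.45 and 1.63. The summed level lay between 1696 and 2096 CPM in irradiated mice and between 740 and 793 CPM in unirradiated mice (medians 1883 and 755 CPM), so that mouse 51 stood apart from the unirradiated mice on this list as well.

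Cdkn1a, which encodes the cell cycle inhibitor p21 (chromosome 17, 29090976 to 29100727, forward strand), was between 19.7 and 90.2 CPM (median 33.9) after TBI and between 1.22 and 2.95 CPM (median 2.23) without. Its log2 fold change was 4.31 ± 0.39 (SE; adjusted p = 7.0e-06) with all mice, 4.15 with even-numbered mice and 4.79 in the BIO 300-treated mice. The groups were fully separate, and the highest value was that of mouse 51. Ccng1, the gene of cyclin G1, varied little between mice, from 188 to 271 CPM (median 234) with TBI and from 59.2 to 66.3 CPM (median 60.8) without, a log2 fold change of 1.92 ± 0.14 (SE; adjusted p = 1.8e-06). Mdm2, the ubiquitin ligase that degrades p53, rose by 1.13 ± 0.12 (SE), from between 37.9 and 42.2 CPM to between 71.2 and 98.5 CPM. With total counts Mdm2 stayed higher at 0.71, below the threshold of size.

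The apoptotic targets of p53 rose as well. Bax, a pore-forming member of the BCL2 family, was between 20.4 and 34.9 CPM (median 29.8) in irradiated and between 11.8 and 15.1 CPM (median 13.6) in unirradiated mice, a log2 fold change of 1.10 ± 0.15 (SE) that was also 0.71 with total counts. Bbc3, which encodes PUMA, rose by 2.29 and Fas, a death receptor, by 1.49. Larger increases were those of Eda2r (4.79), a receptor of the tumour necrosis factor family, and Phlda3 (3.64), an inhibitor of AKT. The size for Eda2r rests on few counts, since no unirradiated mouse exceeded 0.416 CPM. Trp53inp1, a cofactor of p53, rose by 1.81. Against this direction, Sesn1 (-1.34) and Trim7 (-2.37) fell, and both also fell in even-numbered mice. Btg2 (0.44) was not called. Ephx1, an epoxide hydrolase that is highly expressed in liver, had a log2 fold change of 1.40 with all mice but of -1.51, called lower, in even-numbered mice.

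The gene of p53 itself, Trp53, was lower, between 10.3 and 15.7 CPM (median 11.6) with TBI and between 30.0 and 42.9 CPM (median 35.9) without, a log2 fold change of -1.61 ± 0.14 (SE). Of 51 genes of DNA damage signalling and repair, 4 rose (7.84%) and 11 fell (21.6%), with a median of -0.34, against 19.6% and 16.4% of all genes. The share that fell was thus not far from the background. In even-numbered mice 11 rose and 14 fell, against 20.6% and 22.4% of all genes. With total counts 1 rose and 20 fell, against 12.4% and 22.5%. Atm, the kinase that senses double-strand breaks, fell by 1.64, and Parp1, which marks strand breaks with poly(ADP-ribose), fell by 2.55. The 4 that rose were Chek2 (1.50), Rad52 (1.86), Dclre1c (1.31) and Fancd2 (1.02), of which Chek2, Dclre1c and Fancd2 were not called with total counts (0.95, 0.90 and 0.50). B and T cell levels fell in the same mice, and their part in the decreases was not tested. In the BCL2 family, Bmf fell by 2.57, while the survival genes Bcl2 (-0.89) and Mcl1 (0.81) were past the threshold of p but not of size.

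**Figure D3:**
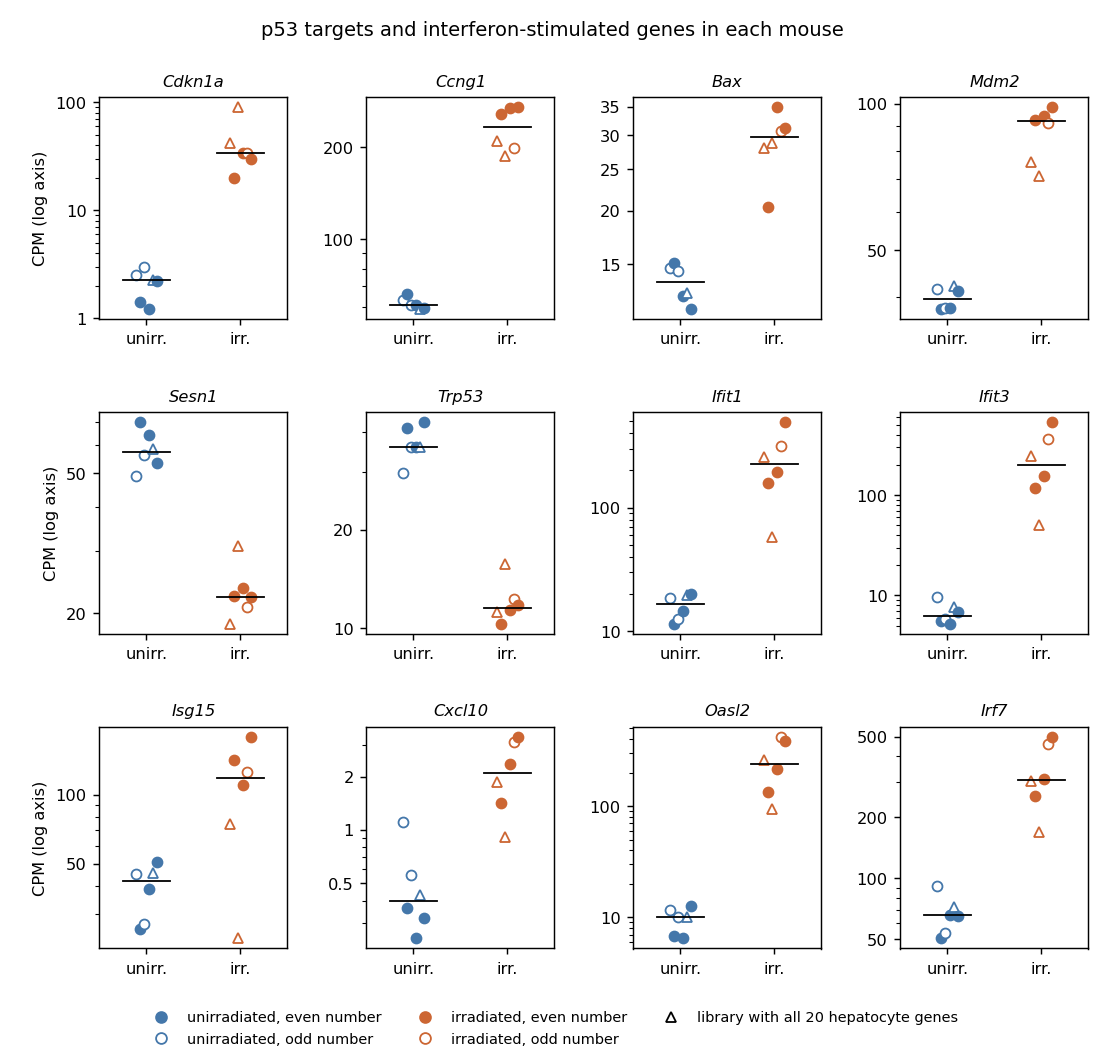
CPM (log y axis) of 6 genes of the p53 system and 6 interferon-stimulated genes in each of the 6 unirradiated and 6 irradiated mice, with medians as bars, even-numbered mice filled and the 3 libraries rich in liver RNA as triangles. Cdkn1a, Ccng1, Bax and Mdm2 are higher and Sesn1 and Trp53 lower in every irradiated mouse than in any unirradiated mouse, whereas Isg15 and Cxcl10 overlap, with mouse 51 the lowest irradiated mouse for both.

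Promoters of the p53 targets were read to show the sites that such genes carry. RefSeq promoters of the GRCm38.p6 build, from 250 bases before to 50 bases after the start, were available for 34 of the 41 genes. Pairs of p53 sites, each pair making up a response element, no more than 13 bases apart and with at most 1 mismatch in the pair, were searched on either strand. They were found in any promoter of 6 of the 34 genes (17.6%) and of 335 of 27025 genes with a promoter in all (1.24%). Of 22 targets that rose and had a promoter, 4 held such a pair. The 3 sequences below are those of called targets described above, on the strand of the gene, with the sites of the pair in capitals. They lie on chromosome 17 from 29090886 to 29090957 (Cdkn1a, forward), on chromosome 11 from 40755442 to 40755501 (Ccng1, reverse) and on chromosome 7 from 45467070 to 45467130 (Bax, reverse). A match is a description of the letters and not proof of binding.
Cdkn1a: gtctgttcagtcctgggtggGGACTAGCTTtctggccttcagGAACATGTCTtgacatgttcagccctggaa
Ccng1: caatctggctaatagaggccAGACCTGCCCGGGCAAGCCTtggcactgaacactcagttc
Bax: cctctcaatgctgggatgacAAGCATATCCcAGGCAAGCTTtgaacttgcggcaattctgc
The Cdkn1a pair has 12 bases between its sites and 0 mismatches, the Bax pair has 1 base between its sites and 1 mismatch, and the Ccng1 sites adjoin, with 1 mismatch.

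Interferon-stimulated genes that were called all rose. Of 44 genes, all tested, 32 rose and 0 fell with all mice and with even-numbered mice (medians 1.69 and 1.83), 30 rose in the BIO 300-treated mice, and the groups were separate for 26. Ifit1, which binds foreign RNA, was between 58.2 and 492 CPM (median 226) in irradiated and between 11.6 and 20.2 CPM (median 16.7) in unirradiated mice, a log2 fold change of 3.92 ± 0.43 (SE; adjusted p = 2.4e-05). Ifit3 was between 50.5 and 534 CPM (median 201) and between 5.25 and 9.56 CPM (median 6.28), a log2 fold change of 5.17 ± 0.52 (SE). In both genes mouse 51 was the lowest irradiated mouse and mouse 54 the highest, and the ranges did not touch. Oasl2, of the oligoadenylate synthetase family, rose by 4.70, and Irf7, the factor that amplifies interferon production, by 2.32.

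Other members of the same list moved less or were not called. Isg15, a ubiquitin-like modifier, rose by 1.49, with mouse 51 below the lowest unirradiated mouse. Cxcl10, an interferon-induced chemokine, rose by 2.09 from a median of 0.398 to 2.11 CPM. Rsad2 (-0.32), usually among the stronger interferon-responsive genes, was not called, and it was abundant and variable, between 275 and 3496 CPM with TBI and between 1272 and 4058 CPM without. The summed level of the 44 genes overlapped between the groups, from 2938 to 12960 CPM with TBI and from 3398 to 7046 CPM without, where the lowest irradiated value was that of mouse 51. Several members are abundant in neutrophils, whose list rose in the same mice, and that part was not tested.

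An interferon-stimulated response element was searched as a pair of GAAA with any 2 bases between them, on either strand of the same promoters and with overlapping matches counted, a motif added after the values had been seen. It was found in 20 of the 33 listed genes with a promoter (60.6%), in 17 of the 25 of these that rose, and in 1079 of 27025 genes with a promoter in all (3.99%). The sequences of 4 called genes are shown on the strand of the gene, with the motif in capitals. They lie on chromosome 19 from 34640765 to 34640833 (Ifit1, forward) and from 34583353 to 34583436 (Ifit3, forward), on chromosome 4 from 156200855 to 156200916 (Isg15, reverse) and on chromosome 5 from 92349073 to 92349122 (Cxcl10, reverse).
Ifit1: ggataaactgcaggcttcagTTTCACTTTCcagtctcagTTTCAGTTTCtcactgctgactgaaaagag
Ifit3: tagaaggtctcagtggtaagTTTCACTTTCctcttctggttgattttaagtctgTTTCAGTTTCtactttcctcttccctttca
Isg15: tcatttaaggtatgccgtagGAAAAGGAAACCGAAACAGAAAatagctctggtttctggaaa
Cxcl10: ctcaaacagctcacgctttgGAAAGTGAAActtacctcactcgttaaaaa
Ifit1 and Ifit3 each hold 2 copies, Isg15 holds 3 overlapping ones and Cxcl10 holds 1. The stretch of Ifit3 is identical in Ifit3b, a near copy of the gene, so that reads of these 2 genes may be shared between them.

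Counts of proliferation genes called differed between even- and odd-numbered mice. Of 56 cell cycle genes, 21 rose and 6 fell with all mice, 30 rose and 4 fell with even-numbered mice, and 0 rose and 4 fell with odd-numbered mice, with medians of 0.69, 1.14 and 0.03. The shares higher and lower over all genes were 19.6% and 16.4% with all mice and 20.6% and 22.4% with even-numbered mice. In odd-numbered mice they were 5.22% and 5.89%. Mki67, the proliferation antigen, was between 127 and 1219 CPM (median 523) after TBI and between 143 and 368 CPM (median 214) without. Its log2 fold change was 1.42 (adjusted p = 0.0233) with all mice and 2.03 with even-numbered mice, and the call was lost with total counts (0.87) and without mouse 26, 27, 50 or 54 (1.10 to 1.38). The test of the difference between even- and odd-numbered mice did not call it (adjusted p = 0.397). Top2a, the topoisomerase of dividing cells, was not called with all mice (0.94) but was with even-numbered mice (1.51). Of members that went the other way, Cdt1 (-2.08 ± 0.16, SE) and Mcm5 (-1.40) act in the licensing of replication origins. Licensing genes were not examined as a set. Pcna, at -0.74, was not past the threshold of size. With total counts only 4 of the 56 rose and 10 fell, against 12.4% higher and 22.5% lower among all genes, so both shares were below the background. Histone genes gave a median of 0.03 with all mice, 0.58 with even-numbered mice and -0.54 with total counts.

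**Figure D4:**
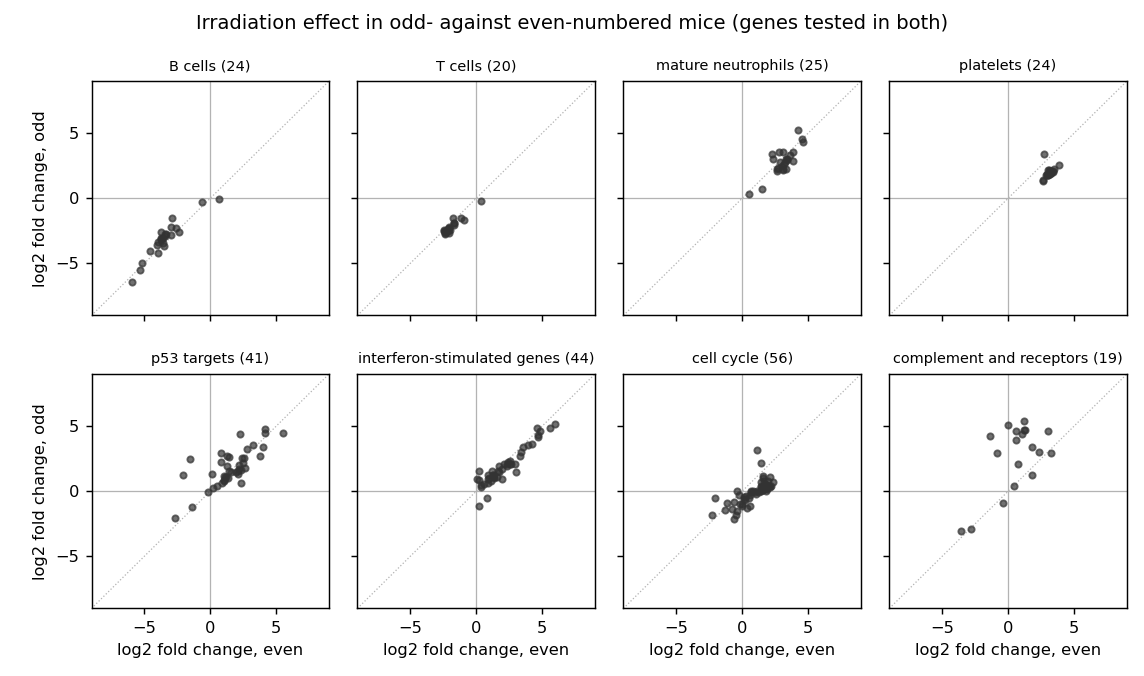
Log2 fold change in odd-numbered mice (y axis) against even-numbered mice (x axis) for the genes of 8 lists tested in both subsets, with the dotted line marking equal values. Platelet genes lie below the line for 23 of 24, cell cycle genes for 50 of 56, T cell genes for 18 of 20, neutrophil genes for 19 of 25 and interferon-stimulated genes for 33 of 44, and B cell genes lie above it for 18 of 24, complement genes for 14 of 19 and p53 targets for 21 of 41. The median vertical distance from the line was -1.22 for platelet, -1.07 for cell cycle and 1.64 for complement genes, and between -0.36 and 0.48 for the other 5 lists.

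Most ribosomal protein genes fell. Of 80 ribosomal protein genes, 55 fell and 0 rose with all mice (median -1.32), 50 fell and 1 rose with even-numbered mice, and 37 fell in the BIO 300-treated mice. Rpsa was between 74.1 and 194 CPM (median 107) with TBI and between 390 and 548 CPM (median 481) without, a log2 fold change of -2.02 ± 0.22 (SE). The groups did not overlap. Of 286 small nucleolar RNA genes, 84 fell and 8 rose, with a median of -1.09, against 16.4% lower and 19.6% higher among all genes. Antioxidant genes under control of the factor NRF2 rose, 17 of 28 with all mice and 16 with even-numbered mice, where 2 fell. With total counts 9 rose and 1 fell, against 12.4% and 22.5% of all genes. Srxn1, sulfiredoxin, rose by 2.63, Hmox1, haem oxygenase, by 2.10, and Fth1, the ferritin heavy chain, by 1.53. Platelet, neutrophil and red cell precursor genes rose in the same mice, and their part in these increases was not tested.

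A further group of genes was higher with all 12 mice and highest in the libraries of mice 49 and 51. Mt1, a metallothionein, was between 0.147 and 91.1 CPM in irradiated mice, with a median of 0.671, and between 0.182 and 1.69 CPM in unirradiated mice. It was a DEG with all mice (5.35 ± 1.66, SE), whereas its log2 fold change was -0.40 in even-numbered mice and -0.72 without the libraries rich in liver RNA. Trf, the gene of serum transferrin, reached 1151 CPM in mouse 51 around a median of 6.31 CPM, with log2 fold changes of 4.53 and 0.56. Fgfr1, a fibroblast growth factor receptor, gave 3.31 and -0.05. C3, the central complement component, gave 4.92 with all mice and 1.19 with even-numbered mice, where it was still called. Per3, a clock gene, gave 2.23 and 0.80 and was not called in even-numbered mice.

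The lists that hold such genes changed accordingly. Of 20 complement genes the median was 3.20 with all mice, 0.77 with even-numbered mice and 0.04 without the 3 libraries, and of 39 collagen alpha chains 2.31, 0.87 and 0.79. For 19 circadian clock genes the median turned from 1.35 to -0.53, with 6 rising and 1 falling with all mice against 2 and 5 with even-numbered mice. Arntl, the clock activator, fell in both (-2.07 and -2.01). A further list held 20 genes taken from those that the study's text discusses, some of them for other samples or for human blood, and it is not independent evidence. Of these, 9 rose with all mice, 8 of 14 tested rose with even-numbered mice, and 8 rose without the 3 libraries. The 8 called in even-numbered mice were C3, S100a8, S100a9, Tlr2, Tlr4, Tlr5, Tlr6 and Tlr8.

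**Figure D5:**
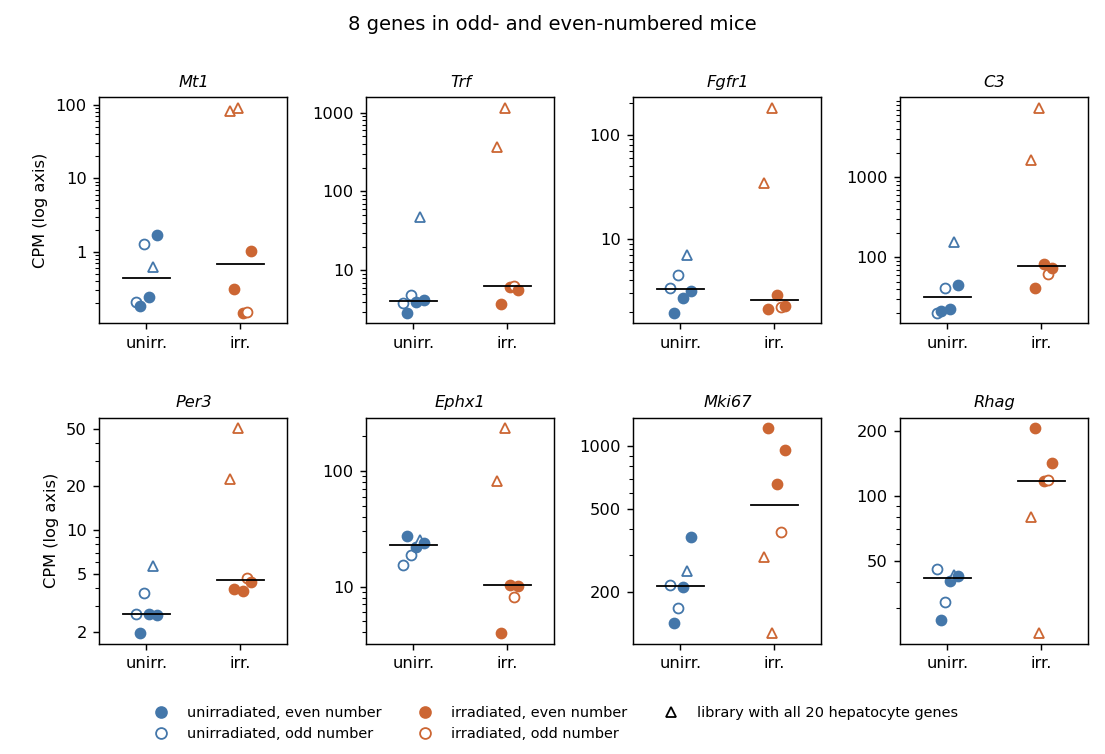
CPM (log y axis) of 8 genes in each of the 6 unirradiated and 6 irradiated mice, with medians as bars, even-numbered mice filled, odd-numbered mice open and the 3 libraries rich in liver RNA as triangles. Mt1, Trf, Fgfr1, C3, Per3 and Ephx1 are highest in mice 49 and 51, whereas Mki67 and Rhag are highest in mouse 50 and lowest in mouse 51.

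The gene with the smallest adjusted p of the comparison was Cd55, a regulator of complement on the surface of blood cells. It was between 19.8 and 27.1 CPM (median 23.2) in irradiated and between 147 and 209 CPM (median 167) in unirradiated mice. Its log2 fold change was -2.91 ± 0.15 (SE; adjusted p = 5.5e-07) with all mice, -2.83 with even-numbered mice, -2.82 without the 3 libraries and -2.60 in the BIO 300-treated mice. The other genes among the 10 largest decreases with separate groups, 10 CPM or more on average in 1 group and a call in even-numbered mice as well, beside Cd8a, Vpreb3, Fcer2a and Ciita named above, were Cd8b1, Ccr6, Ighd, Cpne4 and the noncoding genes A530030E21Rik and Gm43388.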

How the data were processed

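Whole blood was collected into PAXgene tubes. The labels name polyA selection, while the study's methods name a total RNA kit that removes rRNA and globin transcripts. Per the submitters' processing notes, the authors used Trimmomatic 0.36 for trimming, STAR 2.5.2b for alignment against GRCm38 and Subread 1.5.2 for counts per gene. The annotation release is not given in the sources used here. The deposited values were raw counts for 49315 genes, of which 49056 were matched to a GENCODE name by identifier.

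The members and the gene lists were chosen with earlier results of these data known. Genes with at least 10 counts summed over the 12 mice were fitted with the edgeR 4.0.16 quasi-likelihood test, TMM scaling and Benjamini-Hochberg adjustment. Groups came from the labels. CPM are counts scaled by TMM library sizes, not per length, so levels are compared between mice and not between genes. Standard errors were computed from the fold change and its F value. DESeq2 1.42.0, RLE size factors, total counts, 2 other low-count filters, odd-numbered, even-numbered and liver-poor subsets, Day 0 controls, an odd or even term and leaving out each mouse were the alternatives. Named genes were the 10 largest increases and decreases with separate groups and 10 CPM or more on average in 1 group that were also called in even-numbered mice, the 4 most abundant members of each of the 65 lists, members called against their list, 20 genes discussed by the study, and other list members with a role described. No numbers other than animal numbers label the mice, and what odd and even numbers stand for is not given in the sources used here. Mice of a group were separate animals, and which of them shared a cage is not given in the sources used here. Promoters came from RefSeq, with 1 sequence window per start. Ig, T cell receptor, histone and globin genes share reads with near copies. Permutation tests were exact and 2-sided. Some list members are not reported here by name.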

Additional observations from a re-analysis of the deposited data

Results flagged for a closer look

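Of 300 checks of a single mouse against the other 5 of its group (Dixon's gap test, 95% level), 40 stood apart. Many checks share mice or genes, so this count cannot be set against the 1 in 20 of independent checks. Irradiated mouse 51, the library richest in liver RNA, accounted for 15 of the 40. Its summed level was 49600 CPM for hepatocyte genes (3.68 to 14700 CPM in the other 5), 11800 CPM for complement genes (414 to 2930), 683 CPM for collagen alpha chains (33.7 to 185), 6670 CPM for classical monocyte genes (1550 to 2420), 3600 CPM for secondary granule genes (1740 to 2360) and 769 CPM for MHC class II genes (218 to 407). Among single genes, mouse 51 stood above its group for C3 (7380 CPM against 41.6 to 1630), Trf (1150 against 3.78 to 370), Lrg1 (695 against 120 to 299), Ephx1 (235 against 3.94 to 81.6), Fgfr1 (181 against 2.13 to 34.2), Cdkn1a (90.2 against 19.7 to 41.9), Hmox1 (42.8 against 10.3 to 19.8), Parp1 (23.0 against 5.57 to 11.8) and Trp53 (15.7 against 10.3 to 12.3). For Cdkn1a, Lrg1, Hmox1, Parp1 and Trp53 the direction between the groups was the same in even-numbered mice. The remaining irradiated case was Klrk1 in mouse 53 (14.7 CPM against 4.31 to 8.03).

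Among unirradiated mice, mouse 29 stood above the others for hepatocyte genes (3470 CPM against 0.608 to 70.7), complement genes (680 against 408 to 482), circadian clock genes (209 against 162 to 179), collagen alpha chains (79.5 against 44.5 to 51.9), C3 (154 against 20.3 to 45.9), Trf (47.0 against 2.89 to 4.82) and Mcpt8 (3.96 against 1.47 to 2.31), and below them for Fas (6.16 against 7.24 to 7.78). Mouse 25 stood above for histone genes (956 CPM against 664 to 768), Klrk1 (39.2 against 18.8 to 25.4), Siglech (19.4 against 5.73 to 10.3), Tlr11 (4.81 against 1.53 to 2.61), Gzmk (1.77 against 0.628 to 0.925), Cxcl10 (1.11 against 0.245 to 0.557) and Eda2r (0.416 against 0.0608 to 0.118). Mouse 30 had 32900000 counts (22600000 to 25300000 in the others) and 5130 CPM of cell cycle genes (2460 to 3440). Mouse 27 was high for Srxn1 (66.0 CPM against 32.7 to 44.9), Chil3 (30.7 against 17.9 to 21.0), Gata2 (27.6 against 17.3 to 20.9) and Ighv12-3 (0.229 against 0.0392 to 0.0957). Mouse 26 was high for Ms4a1 (338 CPM against 199 to 249) and Tlr1 (46.8 against 35.0 to 39.3) and low for Fth1 (1370 against 1810 to 2070).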

How the results depend on the processing

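Leaving out 1 mouse at a time gave between 7852 (without mouse 26) and 9693 (without mouse 51) DEGs, between 4114 and 5234 of them higher and between 3738 and 4994 lower. Counts moved by over 1.5 times in odd-numbered mice alone (2613 in all, 1228 higher, 1385 lower), in higher DEGs with total counts (3115, and 2656 in the BIO 300-treated mice) and in lower DEGs under the stricter low-count filter of edgeR (2734), which tested fewer genes. DESeq2 called 9006. The test of odd- against even-numbered mice called 0 genes under each of the 2 alternatives run as well. Of 2572 repeats for 117 named genes, 2422 kept direction and side of the threshold, 120 lost the call, 11 gained it and 19 changed direction. With total counts the log2 fold changes of Ralgps2 and Lat turned to -0.20 and -0.49, and the histone median to -0.54. With odd-numbered mice Ralgps2, Lat and the histone median were -0.06, -0.24 and -0.62. Leaving out single mice ended the calls of Retnlg (0.88 to 1.15, without any of 8 mice), Trf (2.77 to 4.36, 7 mice), Fgfr1 (1.18 to 3.30, 6 mice, among them 51), Fancd2 (0.80 to 1.03, 6 mice), Ighv12-3 (1.55 to 1.70, 6 mice), Mki67 (1.10 to 1.38, 4 mice), Ncr1 (-1.11 to -0.92, mice 25, 27, 49 and 51) and Il18r1 (-0.93, mouse 51), and made that of Top2a (1.10 to 1.17, mice 49 and 51). It also moved Lat between -0.12 and 0.25 and Gzmb between -0.42 and 0.09. With even-numbered mice Gzmb (0.14), Ephx1 (-1.51), Rsad2 (0.19), Mt1 (-0.40), Fgfr1 (-0.05) and the clock median (-0.53) changed sign, and without the 3 libraries rich in liver RNA so did Ephx1 (-1.34), Rsad2 (0.20), Mt1 (-0.72), Fgfr1 (-0.35), the clock median (-0.44) and the hepatocyte median (-4.78). With Day 0 controls Gzmb (0.27) and the classical monocyte median (0.39) changed sign. Near 0, list medians also turned from -0.23 to 0.15 for classical monocytes without mouse 27 (0.21 in odd-numbered mice), from 0.03 to -0.26 for histones without mouse 50, from -0.15 to 0.10 for red cells without mouse 51, and from 0.33 to -0.25 for globins with total counts (-0.50 in odd-numbered mice). The causes were not tested. No paired analysis was possible because the groups share no replicate numbers. With 3 mice a group, a gene that missed the threshold was not shown to be equal. Genes under 1 CPM, such as Siglech after TBI, rest on few counts.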

Other observations

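Lists that the text above does not cover were described in the same way. Of 19 MHC class I genes, 2 rose and 2 fell, and of 76 genes of oxidative phosphorylation 7 rose and 1 fell with all mice (median 0.08) while 8 rose and 22 fell in even-numbered mice (median -0.61). Proteasome genes showed the same shift, from 2 higher and 1 lower of 38 to 3 higher and 11 lower (median -0.70). Of 15 iron genes 10 rose and 0 fell with all mice (median 1.53), 7 of 14 rose in even-numbered mice, 7 of 15 without the 3 libraries rich in liver RNA (median 0.53) and 6 with total counts. Of 15 genes of haematopoietic progenitors 9 rose and 2 fell (median 1.27), with 9 higher and 1 lower in even-numbered mice. Of 21 chemokine receptors 8 rose and 7 fell, of 14 Fc receptor genes 3 rose and 5 fell, and of 14 S100 genes 7 rose and 1 fell. Of 9 plasma cell genes 4 fell and 0 rose, and of 9 eosinophil genes 2 rose and 0 fell. The background was 19.6% higher and 16.4% lower with all mice, and 20.6% higher and 22.4% lower with even-numbered mice. It was 20.7% and 23.5% without the 3 libraries, and 12.4% and 22.5% with total counts.

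Of 6 pancreatic acinar genes tested, 3 rose. Cela1, an elastase that other tissues also express, was between 15.8 and 89.5 CPM with TBI and between 7.30 and 17.0 CPM without, a log2 fold change of 2.09 and of 2.77 in even-numbered mice. Mouse 51 lay inside the unirradiated range and the other 5 irradiated mice above it. Prss2, which encodes a trypsinogen, was at most 1.23 CPM.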
